A study of Mus musculus with 18 samples.

Results

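The gene set described here is a module of 33 genes for lysosome biogenesis and the TFEB family of transcription factors. Its members were taken by gene symbol from a fixed list, and all 33 were found among the 45777 genes of the deposited table and among the 14650 genes that passed the filter on low counts. The module holds 8 genes of the TFEB family and the nutrient-sensing proteins that control it, 5 lysosomal membrane proteins, 6 cathepsins, 8 other lumenal enzymes and carriers, and 6 subunits or partners of the vacuolar proton pump, the V-ATPase. Expression was measured by mRNA sequencing in wild-type RAW264.7, a mouse line with macrophage character, in 6 groups of 3 libraries. The groups received DMSO (the vehicle), 20 uM SB24011, 20 uM cGAMP, 20 uM cGAMP with 20 uM 7a, 20 uM cGAMP with 10 uM SB24011, or 20 uM cGAMP with 20 uM SB24011. Every group, the vehicle group included, spent the 6 h of treatment in DMEM without serum. cGAMP, made in cells by the DNA sensor cGAS, switches on STING, the study describes SB24011 as an inhibitor of the contact between STING and TRIM29, and it describes 7a as the negative analog of SB24011.

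Lysosomes are the acidic organelles in which cells break down proteins, lipids and sugars, and macrophages, which engulf and digest particles, carry many of them. TFEB, TFE3 and MITF are related helix-loop-helix leucine zipper proteins that bind E-box sequences near the start sites of lysosomal genes. When amino acids are plentiful, the kinase complex mTORC1 phosphorylates them on the lysosome surface and holds them in the cytoplasm. That step needs the small GTPases RagC or RagD and the folliculin complex, in which FLCN pairs with FNIP1 or FNIP2. The activity of these factors is set largely by where the protein sits, which mRNA levels do not show.

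Library totals ran from about 45165800 to 65810500 counts. Summed over the 33 members, DMSO libraries spent 1.47% ± 0.0640 (SD, n = 3) of their counts on the module, and the groups with cGAMP alone or with 7a added spent 1.48% ± 0.0649 and 1.47% ± 0.0684. The shares were 1.85% ± 0.0547 for SB24011 by itself and 1.74% ± 0.0641 and 1.79% ± 0.0272 for its 10 and 20 uM doses on cGAMP. They are shares of library totals, without the TMM factors that scale the CPM values below. Group means of those factors ran from 0.953 with cGAMP to 1.10 with SB24011, so the shares and the CPM values are on different scales. Transcripts of the mitochondrial genome took between 1.99% and 3.07% of the counts in single libraries. Of the 7 macrophage markers, all were present in every library, with Cd68 between 547 and 697 CPM (counts scaled to the library total with TMM factors), Lyz2 between 1503 and 3427, Adgre1 between 68.3 and 141 and Fcgr1 between 17.1 and 392. Cd3e, Cd3d, Col1a1, Epcam, Krt8, Tyr and Dct had 0 reads in all 18 libraries, while Cd79a reached at most 8, Pdgfra 2 and Pmel 20 reads in a library. The labels do not say whether the 3 libraries of a group came from separate cultures, so the p-values measure only the spread between these libraries. In RNA from a whole culture, fewer cells of a type and less RNA per cell cannot be told apart.

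Promoter windows from RefSeq (GRCm38.p6), which run from 250 bases before to 50 bases after a transcript start, were available for 29 of the 33 members, 36 windows in all. Atp6v1b2, Ctsb, Atp6v1h and Npc1 had none. The windows were searched on both strands for the palindromes CACGTG, the core E-box letters, and TCACGTGA, a longer form that contains the first and is the centre of the motif known from lysosomal gene promoters. CACGTG occurred in 10 of the 29 members, against 8.093% of the 27025 genes with a window and 7.15% of all 32851 windows. TCACGTGA occurred in 6 members (Mcoln1, Ctsa, Ctsd, Gla, Atp6v0d1 and Atp6v1a), against 1.125% of genes and 0.9741% of windows. The genes with a window were not limited to the 14650 genes tested here. As the longer motif is known from lysosomal gene promoters, its share among the members is no independent result. A match is a description of the letters and is no evidence of binding. The windows below belong to the 4 members that hold the longer motif and were called higher with SB24011 in each of its comparisons with DMSO or cGAMP, followed by that of Lamp1, which holds CACGTG 4 times and was called in no comparison in the fit without a replicate block. Sequences read 5′ to 3′ on the strand of the gene, and capitals mark CACGTG.
Mcoln1, chr8:3500269-3500568, plus strand: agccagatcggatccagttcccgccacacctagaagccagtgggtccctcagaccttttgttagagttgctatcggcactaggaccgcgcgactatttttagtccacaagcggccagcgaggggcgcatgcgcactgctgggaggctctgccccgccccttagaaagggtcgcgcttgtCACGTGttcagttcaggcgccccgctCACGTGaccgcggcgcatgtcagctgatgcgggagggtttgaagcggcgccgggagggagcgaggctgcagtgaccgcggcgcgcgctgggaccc
Gla, chrX:134600956-134601255, minus strand: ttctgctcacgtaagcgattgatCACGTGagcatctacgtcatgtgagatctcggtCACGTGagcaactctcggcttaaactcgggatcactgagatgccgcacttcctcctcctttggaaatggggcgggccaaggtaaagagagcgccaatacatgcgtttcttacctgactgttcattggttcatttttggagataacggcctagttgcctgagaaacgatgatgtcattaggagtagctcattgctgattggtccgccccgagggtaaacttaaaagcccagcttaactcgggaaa
Atp6v0d1, chr8:105566015-105566314, minus strand: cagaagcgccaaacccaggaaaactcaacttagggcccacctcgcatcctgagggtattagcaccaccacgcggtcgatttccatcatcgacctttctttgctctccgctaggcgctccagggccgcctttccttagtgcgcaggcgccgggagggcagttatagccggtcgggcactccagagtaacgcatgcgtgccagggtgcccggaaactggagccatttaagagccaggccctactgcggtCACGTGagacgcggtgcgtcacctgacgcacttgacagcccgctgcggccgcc
Atp6v1a, chr16:44139210-44139509, minus strand: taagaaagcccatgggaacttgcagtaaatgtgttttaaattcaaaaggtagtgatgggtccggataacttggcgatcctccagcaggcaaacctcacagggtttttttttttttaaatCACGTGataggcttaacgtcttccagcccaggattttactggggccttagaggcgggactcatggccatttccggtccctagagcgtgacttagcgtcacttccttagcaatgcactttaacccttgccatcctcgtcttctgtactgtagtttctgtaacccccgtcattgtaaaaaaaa
Lamp1, chr8:13158911-13159210, plus strand: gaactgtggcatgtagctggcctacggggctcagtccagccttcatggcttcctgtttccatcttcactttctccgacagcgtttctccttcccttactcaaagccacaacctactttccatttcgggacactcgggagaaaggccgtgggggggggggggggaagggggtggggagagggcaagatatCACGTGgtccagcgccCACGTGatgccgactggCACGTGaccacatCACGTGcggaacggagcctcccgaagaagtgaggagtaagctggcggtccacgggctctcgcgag

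Counted from the transcript start, with negative numbers upstream, the motif began at -71 and -45 in the Mcoln1 window, at -227 and -194 in Gla, at -3 in Atp6v0d1, at -131 in Atp6v1a, and at -61, -45, -28 and -15 in Lamp1. Fnip1 and Rragc held CACGTG alone, at -75 and -112. Of the 14 members called higher in all 3 comparisons of SB24011 with its own control (alone, and at 10 and 20 uM on cGAMP), 12 had a window and 6 of these held CACGTG: Fnip1, Rragc, Mcoln1, Gla, Atp6v0d1 and Atp6v1a. Of the other 17 members with a window, 4 held it: Lamp1, Ctsa, Ctsd and Ctsl. Neither motif was found in the windows of Fnip2, Lamp2, Lipa, Hexa, Grn and Atp6v0a1, the rest of those 12 members. A window need not cover the outermost start of its gene. The windows of Atp6v0a1 (from chr11:101010148) and Cd63 (from chr10:128909095) lie inside genes that start at 101009422 and 128896231. On the minus strand, Fnip2, Atp6v1a and Ctsl start at 79568151, 44139702 and 64370772. Their windows end short of that, at 79567929, 44139509 and 64370770. Those outer starts were not searched. The windows of Tfeb, Tfe3 and Mitf had neither.

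More members were called with SB24011 than with cGAMP (17 against 13), and so were more of all genes (6541 against 5193). With libraries scaled by totals alone the members called were 20 and 19, and the genes 6309 and 6855. Counts were compared by edgeR's quasi-likelihood test in 1 model of the 18 libraries. A gene was called, and is said to have risen or fallen, at a Benjamini-Hochberg adjusted p under 0.05 over all genes tested. Fold changes are edgeR's log2 values, and their standard errors were derived from these values and the test statistic. With SB24011 alone, 15 of the 33 members (45.5%) rose against DMSO and 2 (6.06%) fell, while 20.4% of all genes tested rose and 24.3% fell. The members' median log2 fold change was 0.22, against -0.01 for all genes. Adding 20 uM SB24011 to cGAMP raised 16 members (48.5%) and lowered 3 (9.09%) relative to cGAMP alone, where 21.7% of all genes rose and 20.6% fell, with medians of 0.21 and 0.02. Scaling by totals alone moved the share of higher genes among those called with SB24011 alone from 45.7% to 57.4%. At 10 uM SB24011 on cGAMP, 15 members rose, Rragd with few reads among them, and 2 fell. Of all genes 19.9% rose and 19.1% fell there, with medians of 0.16 for the members and 0.02 for all genes. These shares describe a list chosen with earlier results of the same libraries known.

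cGAMP alone moved fewer members than SB24011, as it did fewer of all genes, and in both directions. Against DMSO, 8 members (24.2%) rose and 5 (15.2%) fell, with 15.6% of all genes rising and 19.8% falling. Medians were -0.03 for the members and -0.06 for all genes. The split depends on scaling, because the mean TMM factor was 1.04 in DMSO and 0.953 with cGAMP. With libraries scaled by their totals alone, the median of all genes moved to -0.19, the share of higher genes among those called went from 44.1% to 24.9%, and 7 members rose while 12 fell. Fnip2, Mcoln1, Ctsa, Hexa, Atp6ap1, Atp6v0d1 and Atp6v1a were then called lower, at -0.32 to -0.16, while Ctsz lost its call. Against SB24011 alone, cGAMP with 20 uM SB24011 raised 8 members and lowered 4, where 15% of all genes rose and 12.4% fell. Scaled by totals alone this split was 5 and 13, with a median of -0.18 over all genes, and the share of higher genes among those called went from 54.7% to 24.2%. The values below are relative to the TMM reference.

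**Figure D1:**
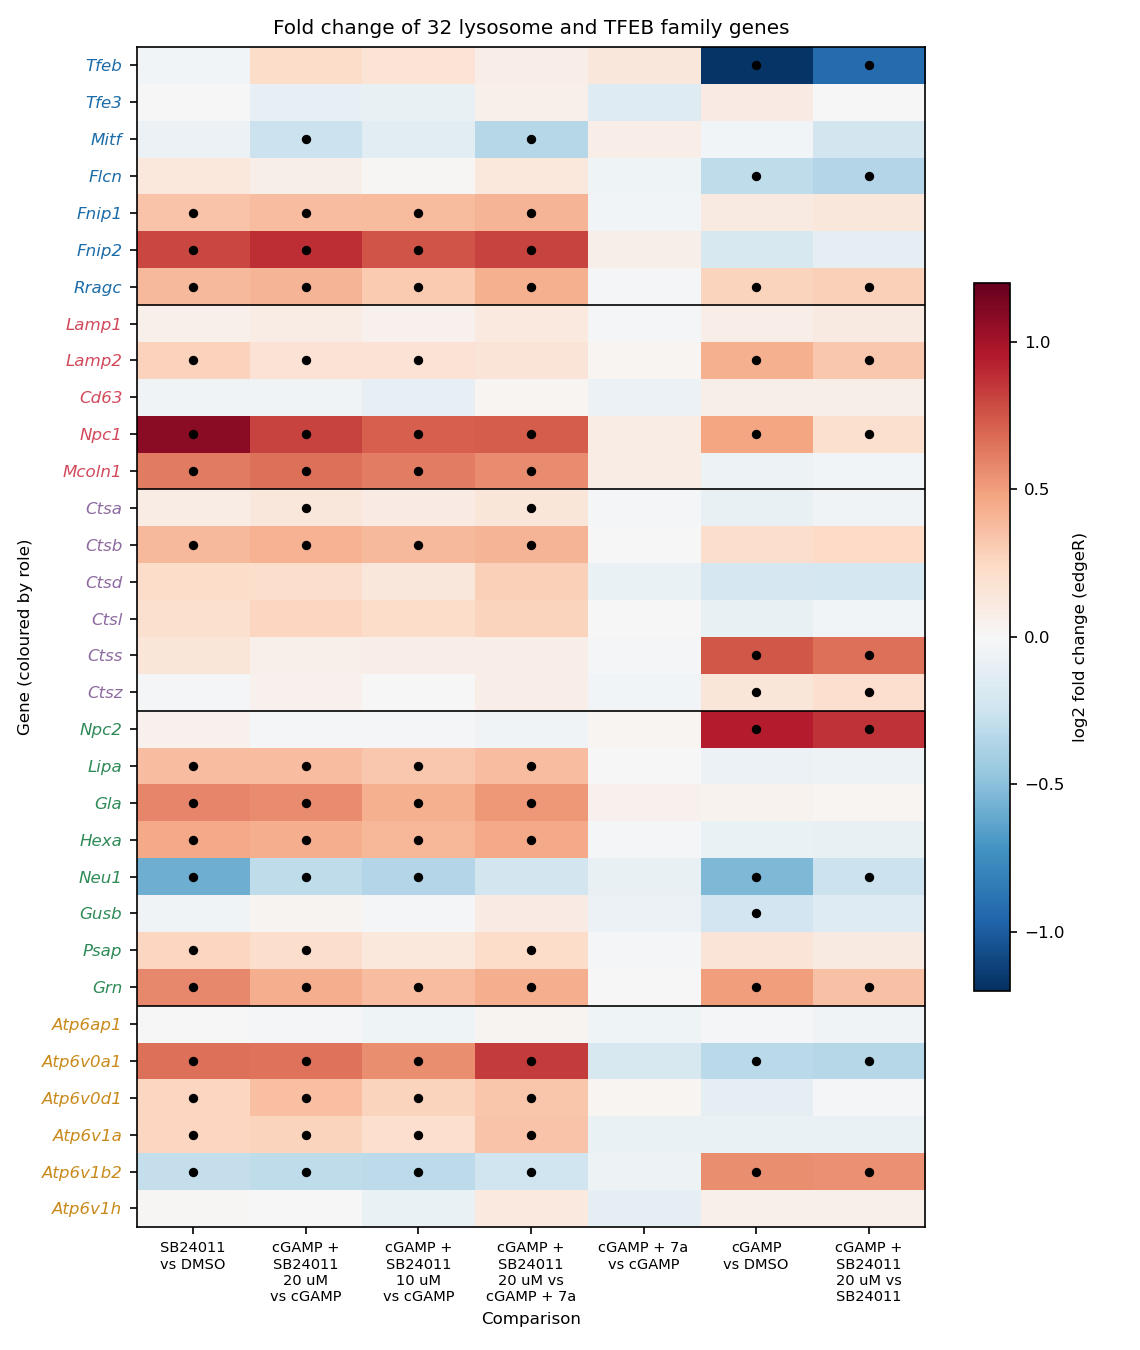
Log2 fold changes of 32 members (rows, coloured by role) in 7 comparisons (columns), where red is higher and blue lower in the first-named group and a black dot marks an adjusted p under 0.05. Rragd, at or near 0 reads, is left out. The 4 columns that set SB24011 against a group without it are mostly red, the 7a column holds no dot, and the 2 cGAMP columns at the right share the dark blue cell of Tfeb and the red cells of Ctss and Npc2.

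Of the 8 genes of the TFEB family and its regulators, 1 rose and 2 fell with cGAMP, 3 rose with SB24011 alone, and 3 rose and 1 fell at 20 uM SB24011 on cGAMP. Among the 3 transcription factor genes, Tfeb (chr17:47737037-47792416, GRCm38) changed with cGAMP. Its level was 18.6, 16.9 and 15.9 CPM in the 3 DMSO libraries and 17.9, 16.6 and 15.9 with SB24011. The libraries with cGAMP alone stood at 7.85, 8.15 and 6.85 CPM, those with 7a added at 8.65, 8.28 and 8.20, with 10 uM SB24011 at 8.82, 7.71 and 9.01, and with 20 uM at 9.24, 7.87 and 9.46. All 12 libraries with cGAMP lay below all 6 without it. The log2 fold change for cGAMP against DMSO was -1.17 (SE 0.10, adjusted p = 5.50e-08), and for cGAMP with 20 uM SB24011 against SB24011 alone it was -0.92 (SE 0.09, adjusted p = 1.07e-06). SB24011 had no called effect on Tfeb without cGAMP, with a log2 fold change of -0.03 and a 95% interval of -0.23 to 0.16. On cGAMP the 20 uM dose gave 0.22 (SE 0.10, adjusted p = 0.0798), and the groups overlapped. In the fit with a replicate block this rise was called (0.22, adjusted p = 0.0450).

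Tfe3 was called in none of the 9 comparisons. It stood at 104, 103 and 104 CPM in DMSO, 103, 103 and 103 with SB24011, 119, 107 and 107 with cGAMP, 99.4, 96.7 and 102 with 7a added, 117, 96.3 and 98.9 with 10 uM SB24011 added and 117, 97.7 and 95.7 with 20 uM. The first library of 3 of the 4 cGAMP groups was the highest of its group. For 20 uM SB24011 on cGAMP against cGAMP alone the log2 fold change was -0.10 with a 95% interval of -0.26 to 0.06. Without replicate 1 of the 20 uM group Tfe3 was called lower there (-0.20, adjusted p = 0.0396).

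Mitf is known best for its role in melanocytes and osteoclasts. Of the melanocyte genes, Tyr and Dct had 0 reads in these cells and Pmel at most 20 in a library. Mitf levels were 60.2, 53.8 and 56.0 CPM in DMSO, 62.2, 49.98 and 49.7 with SB24011 and 59.2, 57.04 and 50.1 with cGAMP. They were 58.2, 56.7 and 61.2 CPM with 7a added to cGAMP, 52.4, 48.2 and 50.9 with 10 uM SB24011 added and 44.6, 45.9 and 48.5 with 20 uM. The 3 libraries at 20 uM lay below those of cGAMP alone and of cGAMP with 7a. Mitf fell by 0.26 on the log2 scale against cGAMP (SE 0.08, adjusted p = 0.0177) and by 0.34 against cGAMP with 7a (SE 0.08, adjusted p = 0.00347). The first of these calls was lost without cGAMP replicate 1 (adjusted p = 0.0837), cGAMP replicate 2 (0.0570) or replicate 1 of the 20 uM group (0.0618). Against SB24011 alone the change was -0.22 (SE 0.08, adjusted p = 0.0575), and in the fit that blocks on the numbered set it was called (-0.21, adjusted p = 0.0254).

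Levels of the 3 genes can be compared per length, in the authors' FPKM. In DMSO, Tfe3 stood at 29.1 ± 0.780 FPKM (SD, n = 3), Mitf at 10.4 ± 0.880 and Tfeb at 6.57 ± 0.595. With cGAMP they stood at 28.9 ± 2.05, 9.28 ± 0.714 and 2.68 ± 0.225 FPKM. Tfe3 was the highest and Tfeb the lowest of the 3 in each of the 6 groups.

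Among the nutrient-sensing regulators, Fnip2, which encodes a partner of folliculin, rose with SB24011. Its libraries held 276, 269.7 and 248 CPM in DMSO, 224, 271 and 199 with cGAMP and 209.7, 281 and 240.3 with cGAMP and 7a. The values were 507, 446 and 431 CPM with SB24011 alone, 391, 423 and 354 with 10 uM on cGAMP and 455, 479.7 and 348 with 20 uM. Each of the 9 libraries with SB24011 exceeded each of the 9 without it. The log2 fold change was 0.80 (SE 0.13, adjusted p = 0.000124) without cGAMP and 0.89 (SE 0.13, adjusted p = 5.87e-05) at 20 uM on cGAMP. With cGAMP alone it was -0.19 (SE 0.13, adjusted p = 0.288), and those groups overlapped.

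Fnip1, the second folliculin partner, rose with SB24011 by less, with log2 fold changes of 0.34 alone and 0.37 at 20 uM on cGAMP. Both calls hinged on single libraries: the first was lost without DMSO replicate 3 (adjusted p = 0.0580) or SB24011 replicate 1 (0.0733), and the second without replicate 1 of the 20 uM group (0.0520). Rragc, which encodes the RagC GTPase, rose with SB24011, with a log2 fold change of 0.39 (SE 0.05, adjusted p = 1.29e-05). It also rose with cGAMP, at 0.26 (SE 0.05, adjusted p = 0.000706), and in the combination against SB24011 alone, at 0.28 (SE 0.05, adjusted p = 0.000471). The last call ended with libraries scaled by totals alone (0.11, adjusted p = 0.0964). Flcn itself fell with cGAMP, by 0.30 on the log2 scale (adjusted p = 0.0109), a call lost without cGAMP replicate 3 (adjusted p = 0.0522). Against SB24011 alone, the combination lowered Flcn by 0.36 (adjusted p = 0.0048). With SB24011 alone Flcn was not called, at 0.13 with an interval of -0.06 to 0.31.

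Rragd, the gene of the RagD GTPase, was close to the limit of detection. It passed the filter on low counts through the group with SB24011 alone, where its reads were most. Fits of only the groups compared kept Rragd in no comparison without that group. The 3 libraries of a group together held 18 reads in DMSO, 58 with SB24011, 0 with cGAMP, 6 with cGAMP and 7a, 24 with 10 uM SB24011 on cGAMP and 19 with 20 uM. SB24011 libraries lay at 0.338, 0.224 and 0.397 CPM and DMSO libraries at 0.117, 0.0884 and 0.0784, without overlap and without a call (adjusted p = 0.178). At 10 uM on cGAMP the libraries lay at 0.165, 0.288 and 0 CPM, so 1 of the 3 held no read, as did all 3 with cGAMP. Rragd was called higher there by edgeR (adjusted p = 0.0366). It counts among the 15 members risen at 10 uM, but a fit of only that pair of groups dropped it. Against a floor of 3 counts over the cGAMP group the difference is at least 7.52-fold higher, a bound that covers counting error only. It rests on 8 and 16 reads in replicates 1 and 2 and 0 in replicate 3, and it was 4.00-fold without replicate 2 and 11.4-fold without replicate 3. Without 1 of the 3 cGAMP libraries it was 4.68 to 5.44-fold. The bounds with a library left out use library totals without TMM factors, unlike the 7.52-fold bound. The call was lost with limma and without any single library of the pair except the 10 uM replicate 3, with adjusted p between 0.0626 and 0.126.

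**Figure D2:**
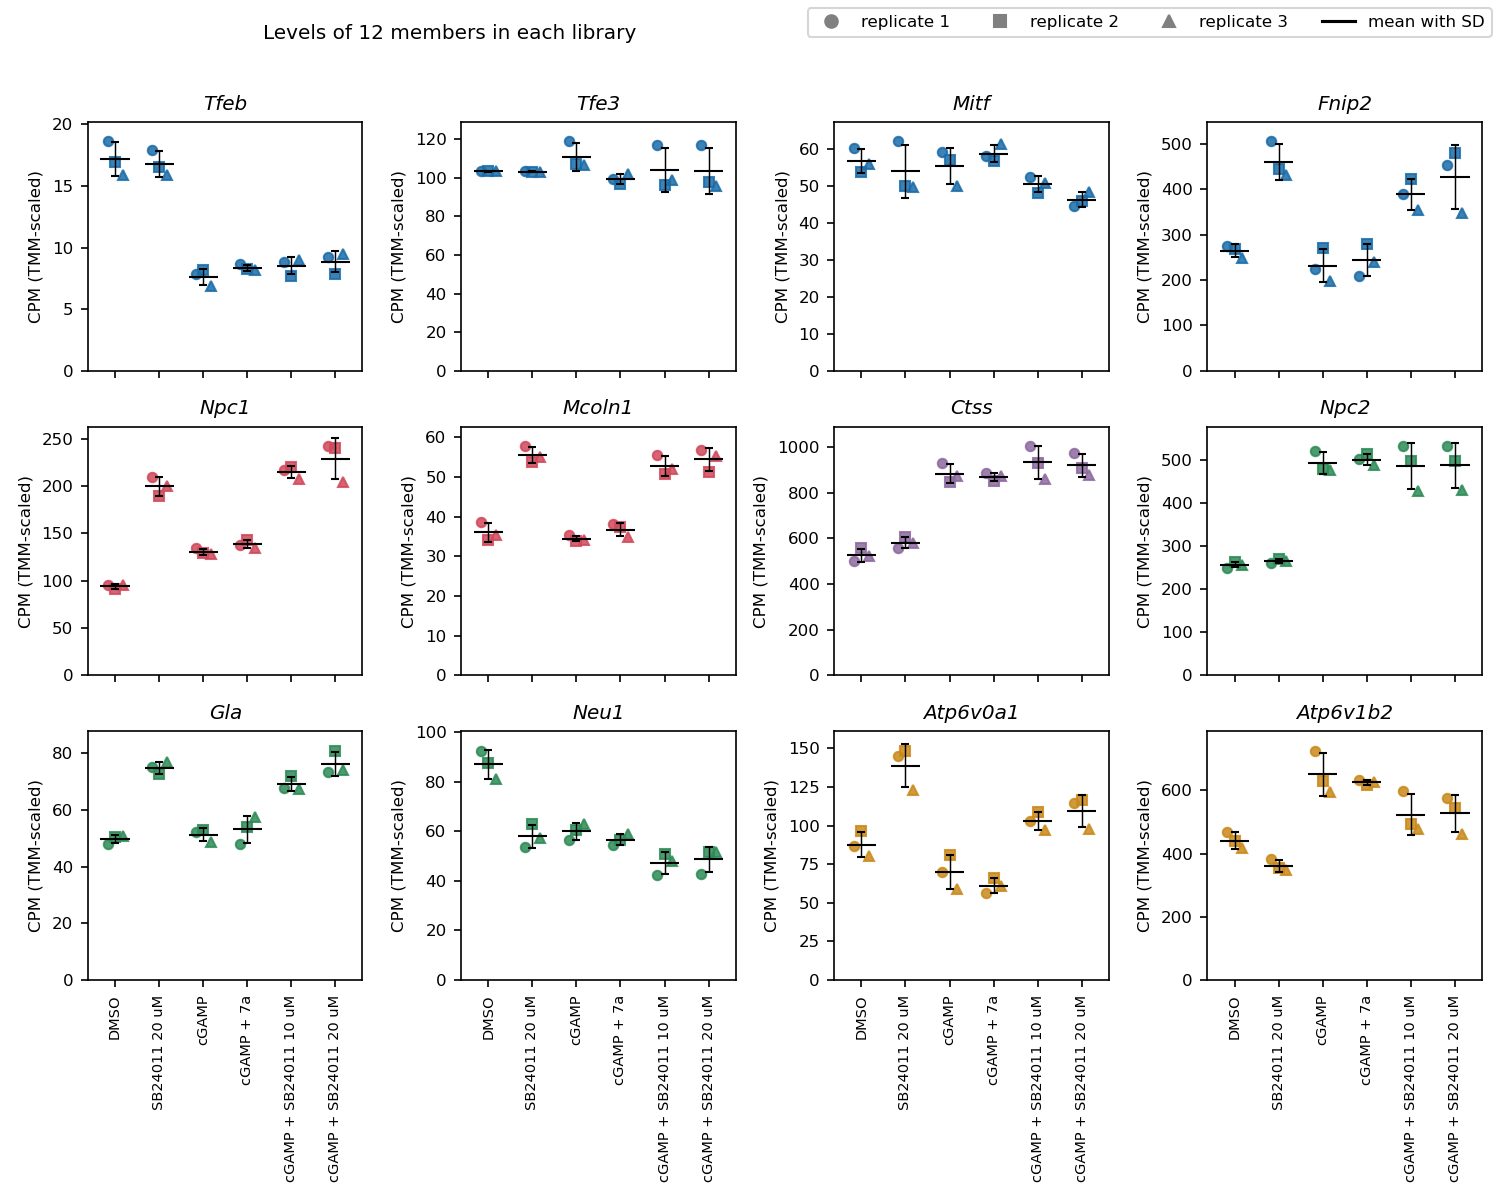
Levels of 12 members in TMM-scaled CPM (vertical axes, from 0) in each of the 18 libraries, with 1 symbol per replicate number and the mean with SD of each group in black. Tfeb is low in the 4 cGAMP groups, Fnip2, Npc1, Mcoln1, Gla and Atp6v0a1 are high in the 3 SB24011 groups, and Ctss and Npc2 are high in the 4 cGAMP groups.

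Of the 5 lysosomal membrane proteins, Lamp2, Npc1 and Mcoln1 rose with SB24011, while Lamp1 and Cd63 were called in no comparison in the fit without a replicate block. Npc1 moves cholesterol out of the lysosome. Its level was 95.9, 91.3 and 95.7 CPM in DMSO and 209.8, 189 and 199.8 with SB24011. On cGAMP it was 134, 129 and 129 CPM with cGAMP alone, 138, 143 and 135 with 7a, 216, 220.3 and 208 with 10 uM SB24011 and 242, 240.3 and 204 with 20 uM. Every library with SB24011 exceeded every library without it, and the cGAMP libraries exceeded the DMSO libraries. The log2 fold change was 1.08 (SE 0.06, adjusted p = 8.10e-10) for SB24011 alone, the largest rise among the members called in that comparison, and 0.81 (SE 0.06, adjusted p = 3.36e-08) for 20 uM on cGAMP. For cGAMP against DMSO it was 0.47 (SE 0.06, adjusted p = 1.22e-05). The combination exceeded SB24011 alone by 0.20 (SE 0.06, adjusted p = 0.0223), and that call was lost without SB24011 replicate 2 (adjusted p = 0.109) or 3 (0.0590), or replicate 1 (0.115) or 2 (0.0974) of the combination, and with libraries scaled by totals alone (0.02, adjusted p = 0.762). Npc1 overlaps Rmc1 on the map, which had a mean of 31.7 CPM against 168 for Npc1, and whether reads were assigned by strand is not given in the sources used here.

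Mcoln1 encodes the lysosomal calcium channel TRPML1, and its promoter window holds 2 copies of CACGTG. The DMSO libraries stood at 38.7, 34.1 and 35.3 CPM, those with cGAMP at 35.2, 33.9 and 34.1 and those with cGAMP and 7a at 38.0, 37.3 and 34.8. With SB24011 they stood at 57.8, 53.7 and 54.9 CPM alone, 55.4, 50.7 and 51.9 at 10 uM on cGAMP and 56.8, 51.1 and 55.3 at 20 uM. The SB24011 groups lay apart from all others and overlapped each other. Log2 fold changes were 0.62 (SE 0.06, adjusted p = 3.17e-07) alone and 0.66 (SE 0.06, adjusted p = 2.59e-07) at 20 uM on cGAMP. cGAMP against DMSO gave -0.07 with an interval of -0.19 to 0.06.

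Lamp2, an abundant membrane glycoprotein also needed for chaperone-mediated autophagy, rose with either treatment, by 0.42 with cGAMP and 0.27 with SB24011 on the log2 scale. On cGAMP the further rise at 20 uM was 0.18 (SE 0.06, adjusted p = 0.0297), lost without cGAMP replicate 2 (adjusted p = 0.1001) or 3 (0.1245) or replicate 1 (0.138) or 2 (0.0507) of the 20 uM group. At 10 uM the call was lost without cGAMP replicate 2 (0.119) or 3 (0.148), or replicate 1 (0.177) or 2 (0.0746) of the 10 uM group. Lamp1, the related glycoprotein, ranged only from 922 ± 12.3 CPM in DMSO to 1037 ± 15.6 (SD, n = 3) with 20 uM SB24011 on cGAMP. Its interval for SB24011 against DMSO was -0.04 to 0.15. Cd63, a tetraspanin of late endosomes, had group means between 270.1 ± 13.4 CPM with SB24011 and 292 ± 18.8 with cGAMP.

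Of the 6 cathepsins, proteases of the lysosome lumen, 2 rose with cGAMP, 1 with SB24011 alone and 2 at 20 uM SB24011 on cGAMP. Ctss, a cysteine protease that macrophages use in antigen processing, was the member with the second largest rise with cGAMP. It stood at 501, 557 and 522 CPM in DMSO and 557, 604 and 581 with SB24011. With cGAMP the libraries stood at 929, 847 and 871 CPM, with 7a added at 884, 851 and 872, with 10 uM SB24011 at 1005, 931 and 860.3 and with 20 uM at 974, 907 and 877. All 12 libraries with cGAMP lay above all 6 without it. The log2 fold change was 0.75 (SE 0.06, adjusted p = 8.62e-08) for cGAMP against DMSO and 0.66 (SE 0.06, adjusted p = 4.20e-07) for the combination against SB24011 alone. For SB24011 against DMSO it was 0.14 (SE 0.06, adjusted p = 0.076), and 0.14 with an adjusted p of 0.0376 in the fit with a replicate block.

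Ctsb, a cysteine protease, rose with SB24011 by 0.39 (SE 0.09, adjusted p = 0.00174) on the log2 scale and by 0.41 (SE 0.09, adjusted p = 0.00121) at 20 uM on cGAMP. With cGAMP against DMSO it was at 0.21 (adjusted p = 0.0743). Ctsb shares ground with Fdft1, whose mean was 95.7 CPM against 3205. Ctsz rose with cGAMP by 0.14 (adjusted p = 0.0413), a call that ended under scaling by totals alone (0.01, adjusted p = 0.824), without the filter on low counts (0.0940) and without DMSO replicate 1 (0.115) or 3 (0.12497) or cGAMP replicate 1 (0.139) or 2 (0.0846). Against SB24011 alone the combination raised Ctsz by 0.20 (adjusted p = 0.00699), and this call too ended with scaling by totals alone (0.03, adjusted p = 0.603). Ctsa, which also shields neuraminidase 1 in a complex, was called at 20 uM on cGAMP, with a log2 fold change of 0.13 (SE 0.05, adjusted p = 0.0276). That call was lost in limma (0.02, adjusted p = 0.866) and without cGAMP replicate 2 (0.0595) or 3 (0.0933) or replicate 2 (0.0587) or 3 (0.0758) of the 20 uM group.

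Ctsd and Ctsl, an aspartic and a cysteine protease, differed between numbered library sets in every group. The numbers in the library names form 3 sets that each hold 1 library of every group, and the labels do not say what a set is. Ctsd stood at 1196, 1934 and 1403 CPM in sets 1, 2 and 3 of DMSO and at 1486, 2095 and 1698 with SB24011. Set 2 was the highest in 6 of 6 groups for Ctsd and for Ctsl, with a median ratio to set 1 of 1.52 for Ctsd and 1.33 for Ctsl. Cd63, Psap and Atp6v0a1 were also highest in set 2 in 6 of 6 groups, and Lamp2, Mcoln1, Grn, Atp6v0d1 and Atp6v1b2 were highest in set 1 in 6 of 6. Without the block neither gene was called in any comparison, and the interval of Ctsd for SB24011 against DMSO was -0.29 to 0.73. Within sets, the ratio of SB24011 to DMSO for Ctsd was 1.24, 1.08 and 1.21, higher in 3 of 3. For Ctsl it was 1.18, 1.11 and 1.16, also higher in 3 of 3. With the set as a replicate block both were called, Ctsd at 0.23 (adjusted p = 0.00124) and Ctsl at 0.20 (adjusted p = 0.00342), and the number of members called in this comparison went from 17 to 20, while calls over all genes went from 6541 to 7811. At 20 uM SB24011 on cGAMP the blocked fit called both genes higher too, Ctsd at 0.22 (adjusted p = 0.00214) and Ctsl at 0.26 (adjusted p = 0.000463). Calls over all genes went from 6201 to 7496 in that comparison. For cGAMP with SB24011 against SB24011 alone, the ratios of Ctsd within sets were 0.829, 0.870 and 0.885. The blocked fit called Ctsd lower there (-0.22, adjusted p = 0.00362). It also called Lamp1 (0.11, adjusted p = 0.0213), Ctsb (0.24, adjusted p = 0.00321) and Psap (0.11, adjusted p = 0.0281) higher and Gusb lower (-0.16, adjusted p = 0.0425), which with Mitf, given above, made 18 members called in place of 12, while calls over all genes went from 4008 to 5225.

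**Figure D3:**
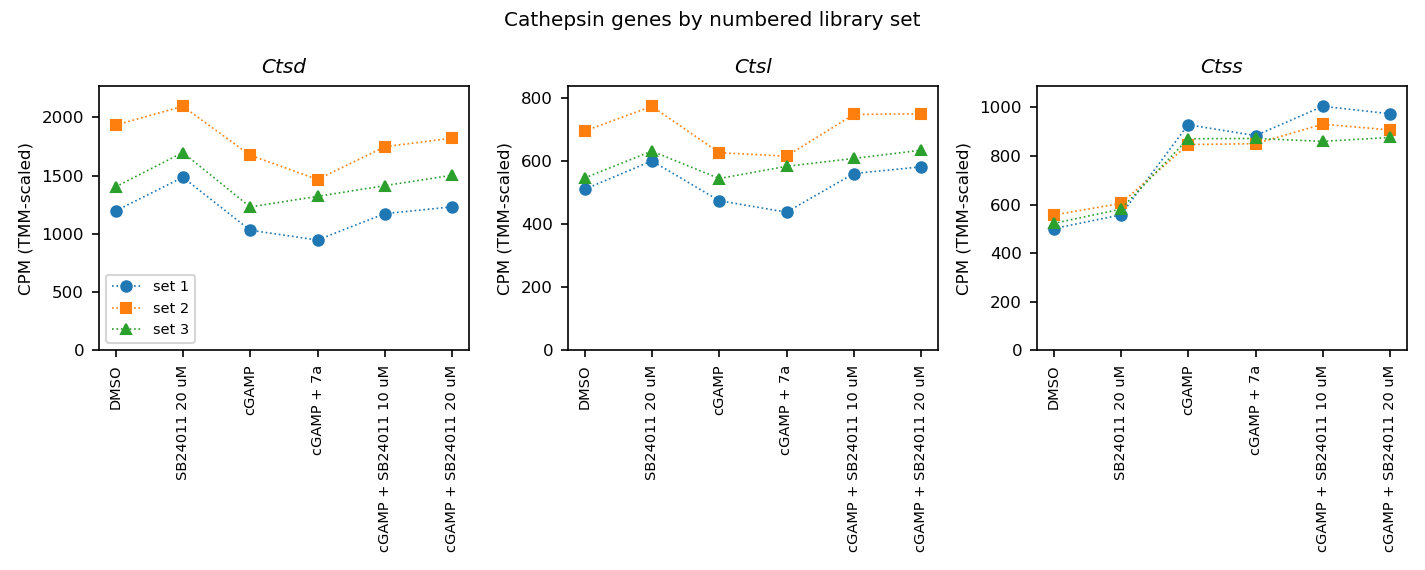
Levels of Ctsd, Ctsl and Ctss in TMM-scaled CPM (vertical axes, from 0) in the 6 groups, with dotted lines joining the 6 libraries of a numbered set. The set 2 line lies on top for Ctsd and Ctsl in every group, while for Ctss the step between groups without and with cGAMP exceeds the distance between sets.

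Of the 8 other lumenal proteins, 2 rose and 2 fell with cGAMP, and 5 rose and 1 fell with SB24011 both alone and at 20 uM on cGAMP. Npc2, the small carrier that hands cholesterol to NPC1, had the largest rise of the members with cGAMP. It stood at 251, 263 and 258 CPM in DMSO and 262, 272 and 267 with SB24011. Its values were 523, 479.6 and 479 CPM with cGAMP, 503, 514 and 489 with 7a added, 533, 498 and 429.8 with 10 uM SB24011 and 534, 499 and 432 with 20 uM. The groups with and without cGAMP did not overlap. Log2 fold changes were 0.94 (SE 0.08, adjusted p = 5.80e-08) for cGAMP against DMSO and 0.87 (SE 0.08, adjusted p = 1.73e-07) for the combination against SB24011 alone. SB24011 gave 0.05 without cGAMP (95% interval -0.11 to 0.22) and -0.02 at 20 uM on it (-0.18 to 0.14). Npc1 and Npc2, which act in turn on the same cholesterol, both rose with cGAMP.

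Gla encodes alpha-galactosidase A, which trims galactose from glycolipids. Its libraries stood at 48.0, 50.2 and 50.9 CPM in DMSO, 52.1, 53.0 and 48.5 with cGAMP and 47.8, 53.8 and 57.5 with cGAMP and 7a. They stood at 75.0, 72.4 and 76.7 CPM with SB24011, 67.8, 71.9 and 67.3 with 10 uM on cGAMP and 73.2, 80.9 and 74.1 with 20 uM. All 9 libraries with SB24011 were above all 9 without it. The log2 fold change was 0.59 (SE 0.06, adjusted p = 1.08e-06) alone and 0.57 (SE 0.06, adjusted p = 2.03e-06) at 20 uM on cGAMP. cGAMP against DMSO gave 0.04, with an interval of -0.09 to 0.18.

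Lipa (lysosomal acid lipase), Hexa (a subunit of beta-hexosaminidase), Psap (the precursor of the saposins) and Grn (progranulin) also rose with SB24011, by 0.37, 0.45, 0.26 and 0.58 on the log2 scale without cGAMP. At 20 uM on cGAMP the values were 0.37, 0.44, 0.21 and 0.43. The Psap call on cGAMP was lost without cGAMP replicate 3 (adjusted p = 0.120) or replicate 1 (0.0604) or 2 (0.0661) of the 20 uM group. Grn rose with cGAMP as well, by 0.51 (SE 0.07, adjusted p = 2.66e-05), and its level went from 871 ± 20.9 CPM in DMSO to 1236 ± 90.1 with cGAMP, 1303 ± 28.0 with SB24011 and 1667 ± 167 with both at 20 uM (SD, n = 3).

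Neu1, the lysosomal sialidase, was the exception in this role. It stood at 92.5, 87.6 and 81.0 CPM in DMSO, 53.8, 63.0 and 57.4 with SB24011 and 56.4, 60.7 and 63.1 with cGAMP. With cGAMP the values were 54.5, 56.6 and 58.8 CPM when 7a was added, 42.2, 50.8 and 48.1 with 10 uM SB24011 and 42.9, 51.5 and 51.5 with 20 uM. Every treated library lay below every DMSO library. Neu1 fell by 0.58 with SB24011 (SE 0.08, adjusted p = 2.36e-05), by 0.54 with cGAMP (SE 0.08, adjusted p = 8.12e-05) and by a further 0.30 at 20 uM SB24011 on cGAMP (SE 0.08, adjusted p = 0.00781). The combination against SB24011 alone gave -0.25 (SE 0.08, adjusted p = 0.0315), a call lost without SB24011 replicate 2 (adjusted p = 0.155) or 3 (0.0646) or replicate 1 of the combination (0.171). Gusb, the beta-glucuronidase often used as a reference gene, fell by 0.23 with cGAMP (adjusted p = 0.0459). That call was lost with DESeq2's scaling (0.0790), with DESeq2 itself (0.0701) and without DMSO replicate 1 (0.116) or 2 (0.128) or cGAMP replicate 1 (0.145) or 3 (0.127).

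Of the 6 V-ATPase genes, whose products pump protons into the lysosome, 1 rose and 1 fell with cGAMP, and 3 rose and 1 fell with SB24011 alone and at 20 uM on cGAMP. Atp6v0a1, the a1 subunit of the membrane sector, stood at 86.5, 96.5 and 80.1 CPM in DMSO and 145, 149 and 123.1 with SB24011. It stood at 70.2, 80.7 and 59.1 CPM with cGAMP, 56.4, 66.3 and 60.7 with 7a added, 103, 109 and 97.3 with 10 uM SB24011 and 115, 116 and 97.8 with 20 uM. Libraries with SB24011 alone exceeded all others, those with SB24011 on cGAMP exceeded all libraries without SB24011, and cGAMP and DMSO overlapped by 1 library each. The log2 fold change was 0.66 (SE 0.11, adjusted p = 9.09e-05) for SB24011 alone, 0.65 (SE 0.11, adjusted p = 0.000139) at 20 uM on cGAMP and -0.33 (SE 0.11, adjusted p = 0.0258) for cGAMP against DMSO. The last call was lost without DMSO replicate 1 (adjusted p = 0.0513) or 2 (0.118) or cGAMP replicate 1 (0.0632) or 3 (0.140). The combination against SB24011 alone gave -0.34 (SE 0.11, adjusted p = 0.0246), lost without SB24011 replicate 1 (0.0804) or 2 (0.102) or replicate 3 of the combination (0.108).

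Atp6v1b2, the B2 subunit of the catalytic sector, stood at 468, 438 and 417 CPM in DMSO, 382, 354 and 347 with SB24011 and 725, 629 and 596 with cGAMP. The remaining groups held 633, 615 and 625 CPM (cGAMP with 7a), 597, 493 and 477 (with 10 uM SB24011) and 576, 545 and 463 (with 20 uM). SB24011 alone was below DMSO without overlap, and cGAMP alone was above it. Atp6v1b2 rose with cGAMP by 0.56 (SE 0.09, adjusted p = 0.000148). It fell by 0.29 with SB24011 alone (adjusted p = 0.0177) and by 0.30 at 20 uM on cGAMP (adjusted p = 0.0149). The fall with SB24011 alone was lost without DMSO replicate 1 (0.0735) or SB24011 replicate 2 (0.0556) or 3 (0.0677), and that on cGAMP without cGAMP replicate 1 (0.0930) or replicate 3 of the 20 uM group (0.0852). At 10 uM the fall (-0.31) was lost without cGAMP replicate 1 (0.0792) or replicate 2 (0.0560) or 3 (0.0656) of the 10 uM group. The comparisons of cGAMP and of SB24011 with DMSO share the DMSO libraries. Against SB24011 alone, the combination raised Atp6v1b2 by 0.55 (SE 0.09, adjusted p = 0.000232).

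Atp6v0d1, a membrane-sector subunit, and Atp6v1a, the catalytic A subunit, rose with SB24011 by 0.26 and 0.26 on the log2 scale without cGAMP, and by 0.36 and 0.26 at 20 uM on it. At 10 uM Atp6v1a rose by 0.20 (SE 0.07, adjusted p = 0.0255), a call lost without cGAMP replicate 2 (0.0986) or 3 (0.0795) or replicate 1 (0.0980) or 3 (0.0615) of the 10 uM group. The accessory subunit gene Atp6ap1 and Atp6v1h, the H subunit of the catalytic sector, were called in no comparison. Their group means ran from 214 ± 8.21 to 226 ± 6.51 CPM and from 135 ± 8.05 to 146 ± 8.59 CPM (SD, n = 3).

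With and without cGAMP, SB24011 moved largely the same members. Of the 33 members, 15 rose and 2 fell in both comparisons, 1 rose (Ctsa) and 1 fell (Mitf) at 20 uM on cGAMP alone, and none was called in opposite directions. These comparisons share no library. Across 32 members, Rragd left out, Pearson's r between the log2 fold changes was 0.947, a description over genes of the same libraries and sets. The test of the difference itself, the interaction of cGAMP and 20 uM SB24011, called 0 of 33 members, while 0.246% of all genes were called higher and 0.123% lower. By edgeR 2 members had an unadjusted p under 0.05, and DESeq2, limma and the blocked fit called 0. Those 2 were Npc1, with an interaction of -0.27 (95% interval -0.46 to -0.09, adjusted p = 0.263), and Neu1, with 0.28 (0.03 to 0.53, adjusted p = 0.471). The median half-width of the members' intervals was 0.21 on the log2 scale, so smaller differences could not be resolved.

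**Figure D4:**
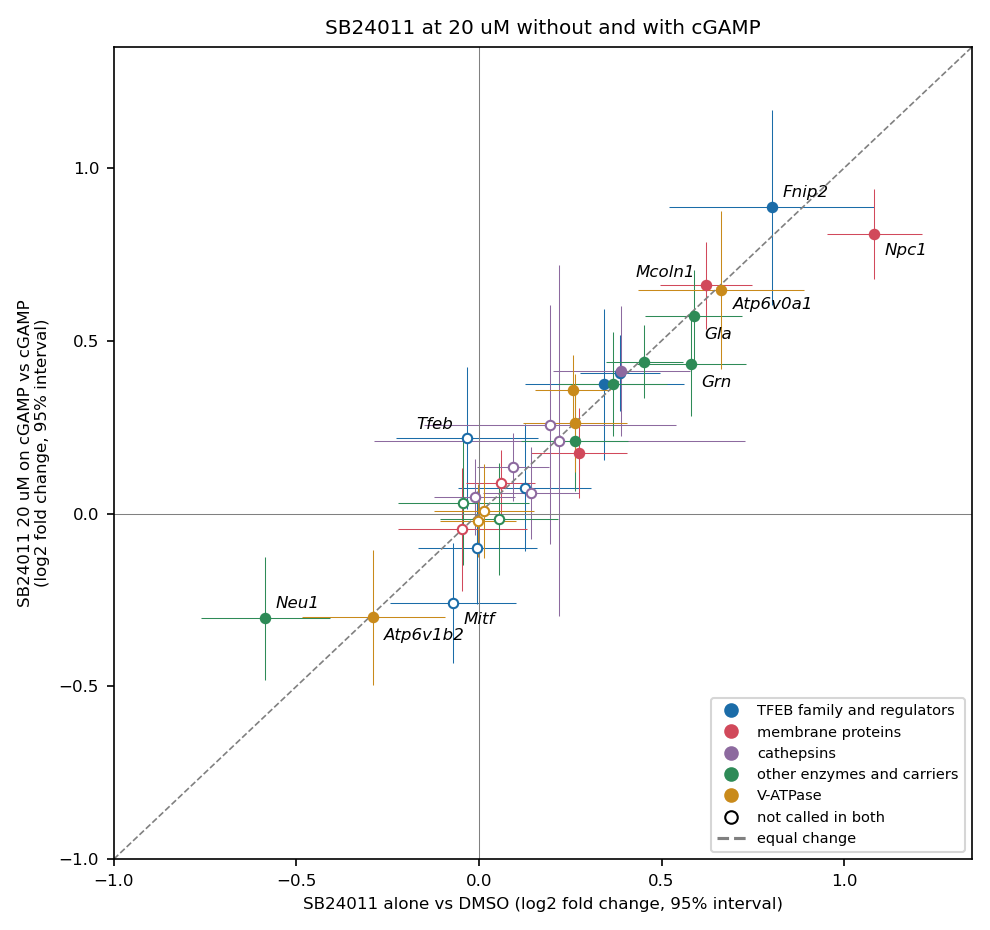
Log2 fold change of 32 members with 20 uM SB24011 without cGAMP (horizontal axis) and on cGAMP (vertical axis), with 95% intervals, coloured by role. Filled points were called in both comparisons, the dashed line marks equal change, and Fnip2, Npc1, Atp6v0a1, Mcoln1 and Gla lie at the upper right with Neu1 and Atp6v1b2 at the lower left.

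The analog 7a was given at a dose matched to SB24011, 20 uM on 20 uM cGAMP, and this was the 1 pair of compounds compared at equal dose and time. Of the 33 members, 0 were called between cGAMP with 7a and cGAMP alone, and 0% of all genes were called higher or lower by edgeR. No member reached an unadjusted p under 0.05, and 0 members were called by DESeq2, limma or the blocked fit, although DESeq2 called 39 genes of the whole table and the blocked fit 8. The 95% intervals of the members other than Rragd lay between -0.58 and 0.43, both ends set by Ctsd, with a median half-width of 0.15. Direct comparison of the compounds on cGAMP gave 15 members higher and 2 lower with SB24011 than with 7a, where 19.7% of all genes were higher and 16.7% lower. Medians were 0.22 for the members and 0.01 for all genes.

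Among the members called, the largest difference between the compounds was in Atp6v0a1, at 0.84 (SE 0.11, adjusted p = 1.49e-05) on the log2 scale, followed by Fnip2 at 0.81 (SE 0.13, adjusted p = 0.000168) and Npc1 at 0.72 (SE 0.06, adjusted p = 1.55e-07). Mcoln1 differed by 0.57 (SE 0.06, adjusted p = 1.79e-06) and Gla by 0.52 (SE 0.06, adjusted p = 7.73e-06). Mitf and Atp6v1b2 were lower with SB24011, the second by 0.24 with an adjusted p of 0.0499, close to the threshold. That call was lost without the filter on low counts (0.0539), in limma (0.0562) and without any of replicates 2 and 3 of the SB24011 group or 1, 2 and 3 of the 7a group (0.0679 to 0.216). Ctsa and Psap, higher with SB24011 by 0.15 and 0.22, were lost without 7a replicate 1 (adjusted p = 0.0849 and 0.0518), among other single libraries. For the other 16 members no difference between the compounds was called in the fit without a replicate block. Their intervals, Rragd apart, were narrowest for Lamp1 (0.02 to 0.21) and widest for Ctsd (-0.22 to 0.80). For Tfeb the interval of the difference was -0.12 to 0.29, for Ctss -0.05 to 0.21 and for Npc2 -0.20 to 0.12.

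**Figure D5:**
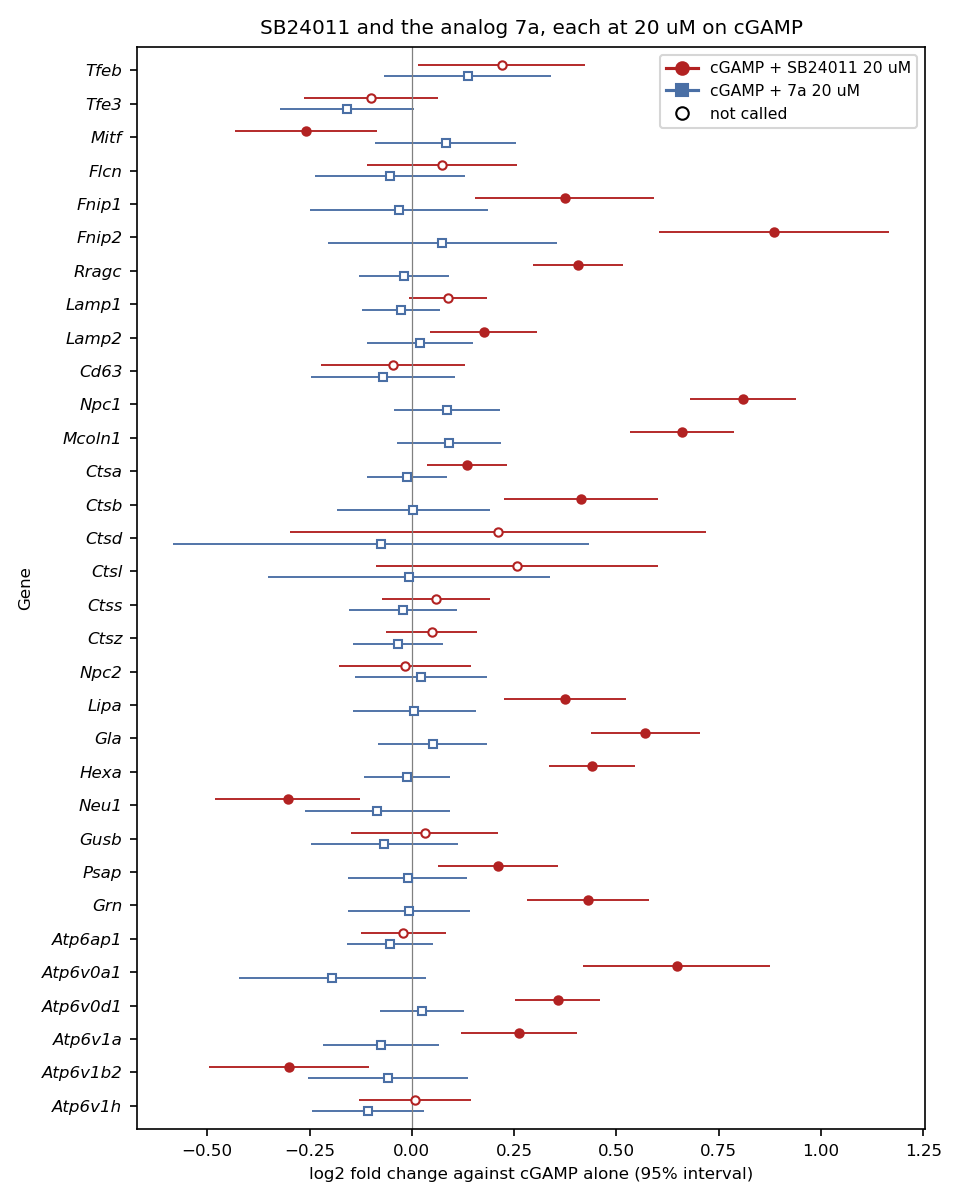
Log2 fold change against cGAMP alone (horizontal axis, with 95% intervals) for 20 uM SB24011 (red circles) and 20 uM 7a (blue squares) on cGAMP, for 32 members. Filled symbols were called: 19 members for SB24011 and 0 for 7a, whose intervals all cover 0.

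Between 10 and 20 uM SB24011 on cGAMP, 0 members and 0% of all genes were called in either direction, also by DESeq2, limma and the blocked fit. Gla was the 1 member with an unadjusted p under 0.05, at 0.14 with an interval of 0.01 to 0.27. Fnip2 differed by 0.13 (-0.14 to 0.41), Npc1 by 0.09 (-0.04 to 0.22) and Mcoln1 by 0.05 (-0.08 to 0.17). Across the members the median half-width of these intervals was 0.15. The widest apart from that of Rragd belonged to Ctsd, from -0.44 to 0.58.

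Genes of the same pathways outside the module were counted from lists of the same kind. Of 38 other lysosomal hydrolases and cofactors tested, 16 rose and 4 fell with SB24011 alone, and 14 rose and 2 fell at 20 uM on cGAMP. With cGAMP against DMSO 3 rose and 10 fell. For all genes tested the shares were 20.4% higher and 24.3% lower with SB24011 alone, 21.7% and 20.6% at 20 uM on cGAMP, and 15.6% and 19.8% with cGAMP, and the counts of this and the following lists stand against these. Idua, which removes iduronic acid from glycosaminoglycans, had the largest rise with SB24011 (1.05 alone, 1.18 at 20 uM on cGAMP, SE 0.07, adjusted p = 1.09e-09). With cGAMP the extremes were Ctso, a cathepsin, at 1.15 (SE 0.10, adjusted p = 1.69e-07) and Sgsh, a heparan sulfate sulfamidase, at -1.10 (SE 0.13, adjusted p = 6.12e-06).

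Other lysosomal membrane proteins numbered 23, of which 11 rose and 1 fell with SB24011 alone, 10 rose and 2 fell at 20 uM on cGAMP, and 5 rose and 4 fell with cGAMP, the last near the 15.6% and 19.8% of all genes. Among those with a mean of at least 1 CPM, Tmem175, a lysosomal ion channel, had the largest rise with SB24011 (1.03, SE 0.09, adjusted p = 1.81e-07). Scarb2, the receptor that carries glucocerebrosidase to the lysosome, rose with cGAMP (0.79, SE 0.08, adjusted p = 7.23e-07), and Ctns, the cystine exporter, was lower (-0.82, SE 0.09, adjusted p = 1.88e-06). Among 14 other V-ATPase subunits, 6 rose and 3 fell with SB24011 alone, where 20.4% of all genes rose and 24.3% fell, 6 rose and 1 fell at 20 uM on cGAMP (21.7% and 20.6%), and 4 rose and 1 fell with cGAMP (15.6% and 19.8%). Tcirg1, which encodes the a3 isoform of the subunit that Atp6v0a1 encodes, had the largest rise with cGAMP (0.47, SE 0.11, adjusted p = 0.00274).

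The list of other mTORC1 and Rag pathway genes numbered 31. It also held Tfec, which encodes a transcription factor related to TFEB and is no member of the module. With SB24011 alone 8 rose and 6 fell, near the 20.4% and 24.3% of all genes. At 20 uM on cGAMP 12 rose and 3 fell (21.7% and 20.6% of all genes), and with cGAMP against DMSO 2 rose and 12 fell (15.6% and 19.8%). Sesn2, a stress-induced leucine sensor that restrains mTORC1, went from 24.6 CPM in DMSO to 92.5 with SB24011 (1.91, SE 0.15, adjusted p = 8.64e-08), and Castor2, of the arginine-sensor family, was lower (-0.90, SE 0.10, adjusted p = 1.08e-06). With cGAMP the related Sesn1 was lower at -1.37 (SE 0.17, adjusted p = 8.63e-06). Of 11 genes for mannose 6-phosphate sorting, which sends enzymes to the lysosome, 3 rose and 1 fell with SB24011 alone (20.4% and 24.3% of all genes), 5 rose and 2 fell at 20 uM on cGAMP (21.7% and 20.6%), and 2 rose and 4 fell with cGAMP (15.6% and 19.8%). M6pr, the cation-dependent receptor, rose with cGAMP (0.61, SE 0.08, adjusted p = 1.23e-05) and Gga3, a Golgi adaptor, was lower with SB24011 (-0.62, SE 0.06, adjusted p = 4.57e-07).

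Levels per length set the scale of these changes. In DMSO the highest member was Ctsd at 704 ± 165 FPKM (SD, n = 3), followed by Ctsb at 473 ± 42.5, and their libraries did not overlap. Lamp1, Grn, Ctss and Ctsz came next, at 371 ± 4.54, 360.1 ± 15.9, 349.7 ± 11.5 and 344 ± 8.88 FPKM, each within the spread of its neighbour in this order. Npc1, Mcoln1 and Gla, which rose with SB24011, stood at 16.3 ± 0.760, 16.1 ± 1.495 and 14.7 ± 0.134 FPKM, the first pair within their spread. Rragd was the lowest, at 0.0156 ± 0.00396 FPKM.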

How the data were processed

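Poly(A) RNA from 18 libraries was sequenced after preparation with a TruSeq stranded mRNA kit, per the labels' protocols. HISAT2 2.1.0, StringTie 2.1.3b, Bowtie2 2.3.4.1, Trimmomatic 0.38 and the build GRCm38 (mm10) are listed in the submitters' processing notes. For the read counter, its strand setting and multiply mapped reads, the step is not given in the sources used here. Per gene, the authors' table holds raw read counts and FPKM as deposited, per the file headers. A second deposited table of quantile-normalized values was not used here.

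Counts were analysed in R 4.3.3 with edgeR 4.0.16 (filterByExpr, TMM, robust quasi-likelihood fit of the 6 groups, 12 residual degrees of freedom, two-sided F-tests, prior count of 0.125). Adjustment was by Benjamini-Hochberg over 14650 genes. Intervals are 95%. The 9 comparisons were 8 pairs of groups and 1 interaction. Alternatives were RLE or total-count scaling, no filter, DESeq2 1.42.0, limma 3.58.1 on log2 of FPKM with a pseudocount of 1 or 0.1, a replicate block, fits of only the groups compared and leaving out each library. The members and lists were chosen with earlier results of these data known. Members were described by library where they were Tfeb, Tfe3 or Mitf or were called with a change of at least 1.5-fold in a pair of groups (11 members). Neu1, Atp6v1b2 and Ctsd were added after their values were seen, Neu1 and Atp6v1b2 as exceptions to their role. Coordinates come from RefSeq. Of the members, 10 overlap another tested gene on the map, each with a lower mean CPM.

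Whether library numbers pair the groups was checked by correlating deviations from the group means. All 18 libraries correlated best with a library of their own set (median r 0.122 over 45 same-set pairs, and -0.0612 over pairs from different sets). Deviations within a group cancel by construction, so the second median largely follows from the first and is no separate evidence. Every pair exceeded 0.1 for SB24011 against DMSO (0.125 to 0.178), 7a against cGAMP (0.137 to 0.183) and the combination against SB24011 (0.105 to 0.176), where blocked values stand beside the results they change. In the other pair comparisons every r was positive, the lowest being 0.0242 for cGAMP against DMSO. Calls that the block added in these are listed in the closing section. Replicates differed by far more than counting noise, with a chi-square per gene of 14.5 to 67.7. With about 45165800 to 65810500 counts per library, 3 counts correspond to between 0.0456 and 0.0664 CPM.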

Additional observations from a re-analysis of the deposited data

How the results depend on the processing

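No single called member changed direction under any alternative run: of values called in the main analysis, 1222 kept their call and 107 lost it, and of those not called 124 gained one. The majority direction of the called members turned for the 2 cGAMP comparisons. Against DMSO, total-count scaling called 19 members (7 higher, 12 lower), and limma on FPKM called 17 with either pseudocount (7 and 10). For the combination against SB24011, total-count scaling called 18 (5 and 13), and limma called 17 (5 and 12) with a pseudocount of 1 and 18 (5 and 13) with 0.1. FPKM is scaled by library totals too. Leaving out 1 library gave 10 to 13 members for cGAMP against DMSO, 16 to 18 for SB24011 against DMSO, 16 to 17 and 14 to 15 for 20 and 10 uM on cGAMP, 15 to 17 against 7a, 10 to 12 for the combination against SB24011, and 0 for the others.

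With the replicate block 20 members were called for SB24011 against DMSO, 18 for the combination against SB24011, and 0 for 7a, the doses and the interaction. Over all genes these calls went from 6541 to 7811 and from 4008 to 5225. Where not every same-set pair exceeded an r of 0.1, the block gave 17 for cGAMP against DMSO, 23 and 20 for 20 and 10 uM on cGAMP and 22 against 7a. Over all genes these calls went from 5193 to 6418, 6201 to 7496, 5708 to 7027 and 5336 to 6683. The block changed no other call than those given above in the comparisons where every pair exceeded 0.1. In the remaining ones it ended no call. With cGAMP it added Ctsb and Psap as higher and Ctsd and Atp6v0d1 as lower. At 20 uM on cGAMP it added Tfeb, Lamp1, Ctsd and Ctsl, and at 10 uM Ctsd, Ctsl and Psap, all higher. Against 7a it added Lamp1, Lamp2, Ctsd and Ctsl as higher and Neu1 as lower. Fits of only the groups compared also ended the calls of Atp6v0a1 (cGAMP against DMSO), of Lamp2, Psap and Ctsa at 20 uM and Lamp2 at 10 uM on cGAMP, of Ctsa, Psap and Atp6v1b2 against 7a, and of Npc1 and Neu1 in the combination against SB24011. In 6 comparisons Rragd did not pass the filter of such a fit, and its low reads limit every value given for it.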
